A study of Homo sapiens with 6 samples.

Results

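Axon guidance cues are secreted or membrane-bound ligands that steer growing axons and migrating cells by attraction or repulsion, and the same ligands and receptors act outside the nervous system in vessel growth, epithelial organization and cell migration. Semaphorins signal through plexins, with neuropilins as co-receptors for the secreted class 3 semaphorins, Slits signal through Robo receptors, and netrins through DCC, neogenin and the UNC5 receptors. UNC5 receptors carry the repulsive response to netrin and are also known as dependence receptors, which can favor cell death when no ligand is bound. The genes of these families were taken by symbol alone: the semaphorins SEMA3 to SEMA7, the plexins A to D, ROBO1 to ROBO4, SLIT1 to SLIT3, NRP1 and NRP2, UNC5A to UNC5D, the netrins NTN1, NTN3 and NTN4, DCC and neogenin (NEO1). They numbered 47 of the 57341 genes in the table, with 26 ligands (20 semaphorins, 3 Slits and 3 netrins) and 21 receptors (9 plexins, 4 Robo and 4 UNC5 receptors, 2 neuropilins, DCC and NEO1).

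The libraries came from the human adrenocortical carcinoma line H295R, an untreated line that makes adrenal steroids, as 3 replicates of the parental cells (labelled H295R) and 3 replicates of a subpopulation with the Hedgehog receptor Ptch1 at its plasma membrane (labelled H295R-PM-Ptc+). The subpopulation was sorted by flow cytometry with an antibody to an outer loop of Ptch1 and then amplified in culture, with no transgene mentioned, so each group is a cultured population of the same line. Both groups were grown in the same medium. The comparison asks how the sorted and amplified cells differ in RNA from the line they came from. Nothing in the labels says that the replicates were separate cultures, so the p-values measure the spread between these libraries, which may be technical.

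The group names need care before any direction is read. PTCH1, the gene the cells were sorted for, held 441, 559 and 579 counts in the H295R-labelled libraries and 248, 326 and 319 in those labelled H295R-PM-Ptc+, a log2 fold change of -0.81 (SE 0.147, edgeR adjusted p = 0.0207, from 0.00637 to 0.0921 when 1 library was left out). The difference ran against the labels. In addition, each of the 6 columns of normalized values published with the study was a scaled copy of the deposited column that bears the opposite group name and an identical replicate code. The groups are therefore called by their labels throughout, and every "higher" or "lower" would turn if the names were exchanged. Total counts per library ran from 23264403 to 25813247. Adrenocortical markers were at a summed 868.6 to 1145.0 CPM (counts scaled to library size) in the H295R-labelled libraries and 934.5 to 1190.7 in the others, with 7 of 8 markers over 3 counts and CYP11B1 not. Markers of other cells were low: 1 of 6 neuronal or chromaffin markers (CHGA, summed 0.787 to 0.809 against 1.04 to 1.6 CPM, with DBH, PNMT and STMN2 at 0), 2 of 4 endothelial markers (0.197 to 0.251 against 0.469 to 0.605), 3 of 4 fibroblast markers (7.91 to 9.29 against 9.12 to 11, LUM at 0) and 1 of 4 immune markers (0.0787 to 0.502 against 0.603 to 0.978, PTPRC and CD68 at 0) had a library over 3 counts. The sums of the neuronal, endothelial and immune lists did not overlap between the groups, and their part in the results was not tested.

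Guidance genes were broadly present in these adrenal cells at RNA level. Of the 47 genes, 41 had more than 3 counts in at least 1 library, and 37 (21 ligands and 16 receptors) had enough counts to be tested. Levels are given here as CPM per kb of gene length, so that genes can be set side by side. The highest receptor was NEO1, a netrin and repulsive guidance molecule receptor, at a mean of 17.1 CPM per kb over the 6 libraries. It was followed by ROBO1, the main Slit receptor of these cells, at 15.7 and by PLXNB2, a receptor of class 4 semaphorins, at 12.9. The highest ligands were the membrane-bound SEMA4B at 14.2, the membrane-anchored SEMA7A at 8.68 and the transmembrane SEMA6B at 6.17 CPM per kb. The place of SEMA6B differed between the groups: at 3.90 it was below SEMA4C (6.05) and SEMA6D (4.32) in the H295R-labelled libraries, and at 8.43 it was beside SEMA7A (8.05) in the others.

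**Figure D1:**
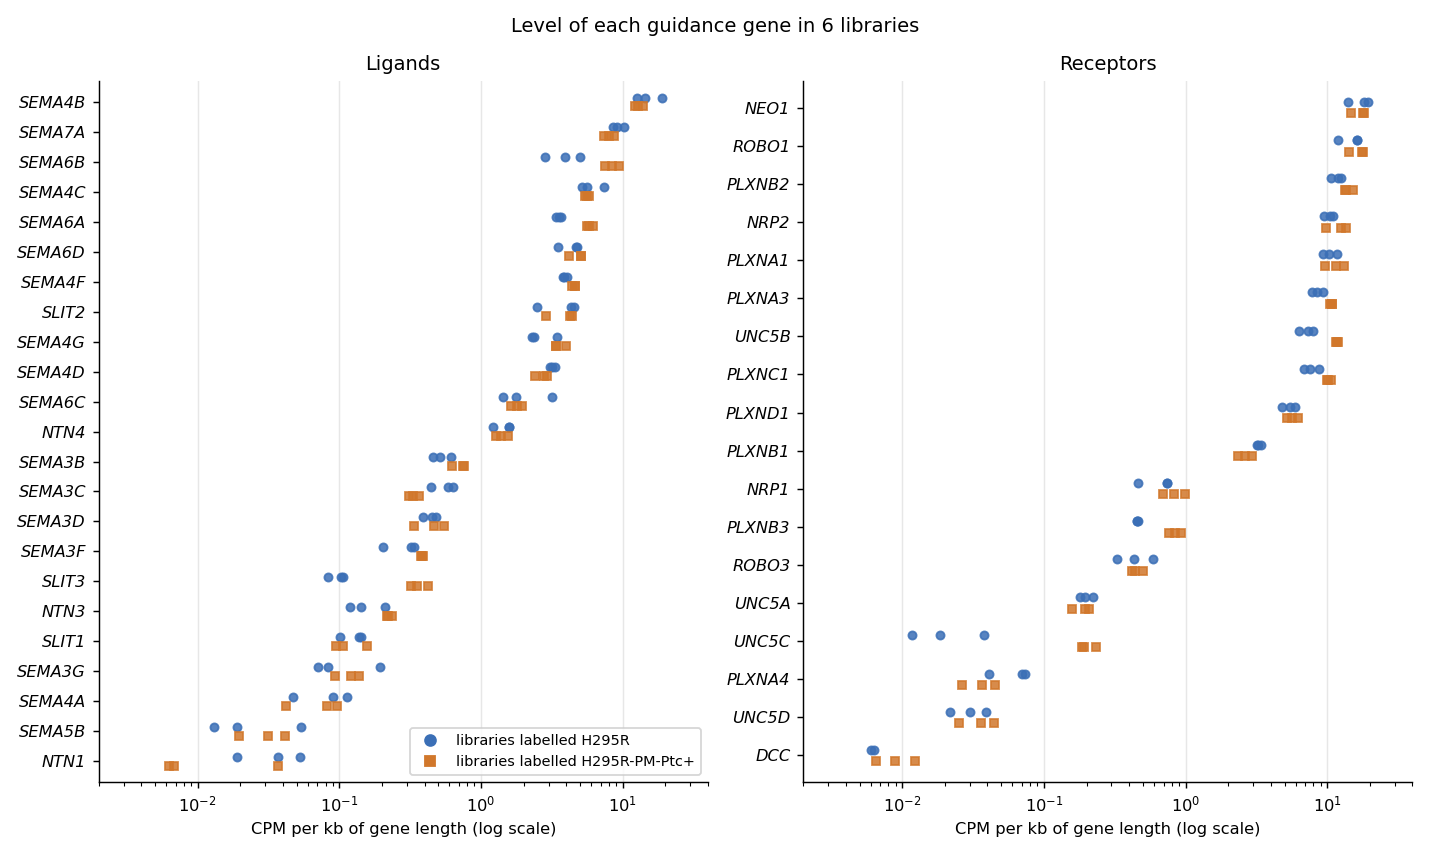
Level of the 41 guidance genes with more than 3 counts in at least 1 library, in CPM per kb of gene length on a log axis, with ligands on the left and receptors on the right. Circles are the 3 libraries labelled H295R and squares the 3 labelled H295R-PM-Ptc+, a library with 0 counts has no symbol, and the order runs from the lowest mean at the bottom to NEO1 (17.1) and SEMA4B (14.2) at the top.

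Within most families 1 member held nearly all of the RNA. ROBO1 made up 96.9% ± 1.42 (SD, n = 3) of the Robo RNA per kb in the H295R-labelled libraries and 97.3% ± 0.601 in those labelled H295R-PM-Ptc+. NRP2, which pairs with plexins for class 3 semaphorins and also binds VEGF, made up 94.2% ± 1.04 and 93.5% ± 0.292 of the neuropilin RNA. UNC5B, the UNC5 receptor also known from blood vessels, made up 96.6% ± 0.190 and 96.5% ± 0.397 of the UNC5 RNA. The shares of these 3 leading genes moved by no more than the larger SD, while the minor member UNC5C went from 0.298% ± 0.153 to 1.68% ± 0.237 of the UNC5 RNA. In the Slit family SLIT2 went from 94.1% ± 1.56 to 88.5% ± 1.90 and SLIT3 from 2.63% ± 1.13 to 8.70% ± 2.06. NEO1 outweighed DCC, the classical netrin receptor, which had 0 to 4 counts in any library.

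In 6 of the genes no library held more than 3 counts: the ligands SEMA3A, SEMA3E and SEMA5A and the receptors PLXNA2, ROBO2 and ROBO4. SEMA3A is the prototype collapsing ligand of neuropilin-1, ROBO2 the second neuronal Slit receptor and ROBO4 the Robo of endothelium. For these genes a count at or under 3 was not distinguishable from absence at this depth, and an interval or floor of this kind covers counting error only. DCC (0 to 4 counts), netrin-1 (NTN1, 1 to 8), SEMA5B (2 to 8) and UNC5D (6 to 12) were above that floor but too low for the test. The highest netrin was NTN4, at 6.10 ± 0.901 CPM in the H295R-labelled libraries and 5.85 ± 0.560 in the others.

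When the groups were compared, 6 guidance genes rose and 0 fell from the H295R-labelled libraries to the others: the ligands SLIT3, SEMA6A and SEMA6B and the receptors UNC5C, UNC5B and PLXNB3. The test was edgeR's quasi-likelihood F-test, two-sided, with Benjamini-Hochberg adjustment over all 16710 tested genes and a threshold of 0.05. Each SE is the absolute log2 fold change divided by the square root of F, so it comes from the test and is not a separate measure of spread. These 6 were 16.2% of the 37 tested guidance genes, where 3.73% of all tested genes were called (2.42% higher and 1.32% lower). DESeq2 called 8 higher and 1 lower, where it called 5.45% of all genes (3.37% higher and 2.08% lower). With limma-voom 7 were called, each of them higher, where 3.64% of all genes were (2.36% higher and 1.28% lower). With 1 library left out, the edgeR count ran from 4 without H295R replicate 3, where 1.28% of all tested genes were called, to 10 without H295R replicate 1, where 4.75% were. The 4 genes added there were SEMA3C, SEMA4G, PLXNA3 and PLXNC1. At an unadjusted p under 0.05 edgeR gave 12 higher and 4 lower guidance genes, 16 of the 37, where 17.3% of all tested genes were under it. The median log2 fold change of the 37 was 0.13 (with 1 library left out, from 0.06 for H295R-PM-Ptc+ replicate 3 to 0.21 for H295R replicate 3 or H295R-PM-Ptc+ replicate 1), beside 0.0009 for all tested genes. Of the guidance genes, 24 of the 37 (64.9%) lay above 0, beside 50.2% of all tested genes.

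**Figure D2:**
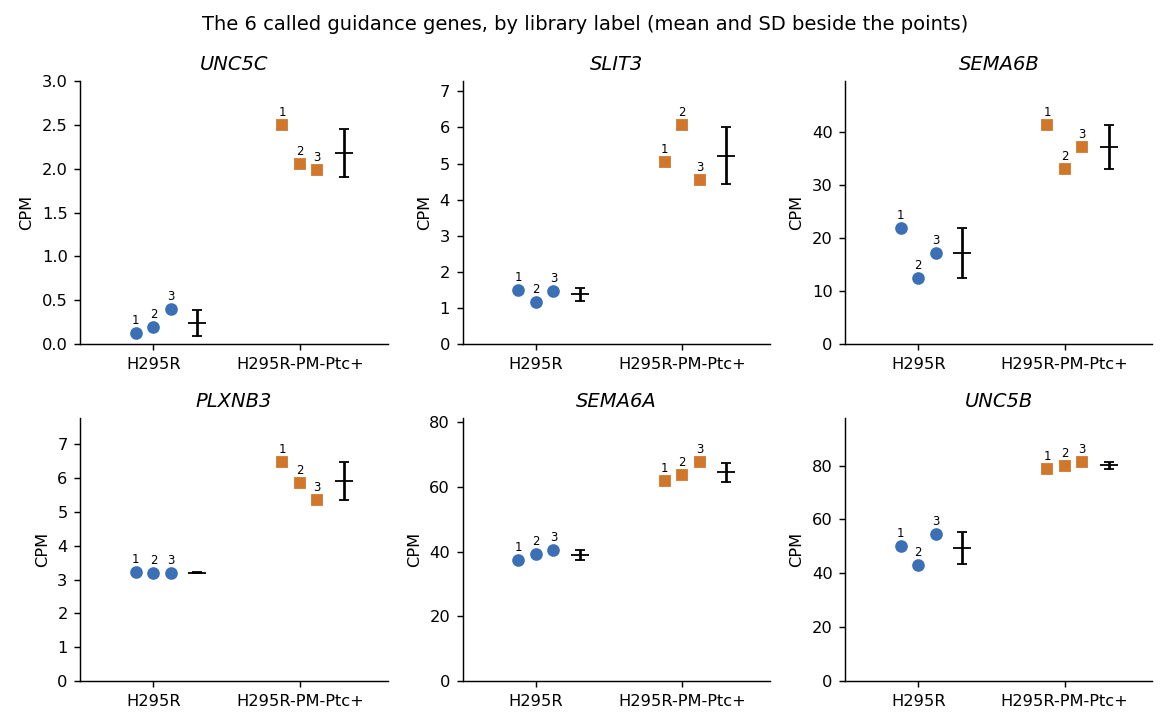
CPM of the 6 called guidance genes in each library, with the replicate number over each point and the mean and SD of the 3 libraries beside it. In each panel the 3 libraries labelled H295R-PM-Ptc+ (squares) lie above the 3 labelled H295R (circles), from an 8.82-fold difference for UNC5C to 1.62-fold for UNC5B.

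UNC5C, a netrin receptor that mediates repulsion, showed the widest difference from a low level. It held 3, 5 and 10 counts in the H295R-labelled libraries and 64, 51 and 46 in those labelled H295R-PM-Ptc+. In CPM these were 0.126, 0.197 and 0.405 against 2.50, 2.05 and 1.99. The lowest library of the higher group was thus well above the highest of the H295R-labelled ones. With so few counts in the H295R-labelled libraries, UNC5C passed the count filter only through the other group, and its test depends on that. The log2 fold change was 3.14 (SE 0.333, 8.82-fold, edgeR adjusted p = 0.00139), and it stayed between 2.84 and 3.70 when each library was left out in turn. The gene lies at chr4:95162504-95549206 on the minus strand (hg38), and its 20 nearest tested neighbors had a median log2 fold change of -0.18, with 15 of them lower. An antisense RNA, RP11-710C12.1, shares 78 exon bases with UNC5C on the other strand and went from 3 to 18 summed counts, and an error in strand assignment between them was not tested.

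UNC5B, its relative with much more RNA, had 1201, 1096 and 1352 counts in the H295R-labelled libraries and 2015, 1989 and 1886 in the others. Its level was 49.4 ± 5.82 against 80.1 ± 1.32 CPM, and the 3 libraries labelled H295R-PM-Ptc+ were close together and above all those labelled H295R. The log2 fold change was 0.70 (SE 0.0935, edgeR adjusted p = 0.00447). UNC5B lies at chr10:71212570-71302864 on the plus strand, among neighbors with a median of -0.01. Since UNC5B carries most of the RNA, the UNC5 family as a whole went from a summed 50.8 ± 6.01 to 83.5 ± 1.02 CPM. The other 2 family members gave no such difference: UNC5A was at 0.867 ± 0.0888 and 0.812 ± 0.108 CPM (log2 fold change -0.09, SE 0.234), and UNC5D was at 0.326 ± 0.0912 and 0.382 ± 0.105.

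SLIT3, a secreted repellent that binds Robo receptors and is also made by stromal and vascular cells, had 36, 30 and 36 counts in the H295R-labelled libraries and 129, 151 and 105 in those labelled H295R-PM-Ptc+. As CPM this was 1.38 ± 0.175 against 5.22 ± 0.783, with no overlap. The log2 fold change was 1.92 (SE 0.183, 3.78-fold, edgeR adjusted p = 9.98e-04), with values of 1.79 to 2.00 when 1 library was left out. The other Slits moved less than their spread: SLIT2, which dominates the family, was at 36.7 ± 10.8 and 37.3 ± 8.17 CPM, and SLIT1 at 1.16 ± 0.206 and 1.08 ± 0.301. SLIT3 lies at chr5:168661733-169301129 on the minus strand, where the 20 neighbors had a median log2 fold change of -0.03.

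The bases before the SLIT3 start are shown because SLIT3 and UNC5C had the largest differences, and of this pair only the SLIT3 window held no base of a deposited exon. The sequence is the 250 bases upstream of the RefSeq start at chr5:169301140-169301389 (GRCh38.p14, minus strand, 62.8% G or C), in lower case with no capitals because neither searched motif was found in it.
SLIT3: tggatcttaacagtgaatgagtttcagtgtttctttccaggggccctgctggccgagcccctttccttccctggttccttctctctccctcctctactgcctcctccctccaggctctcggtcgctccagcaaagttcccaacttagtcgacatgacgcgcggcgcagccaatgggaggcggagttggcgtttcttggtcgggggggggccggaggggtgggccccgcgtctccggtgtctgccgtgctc

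The motifs searched were GACCACCCA, the core bound by the GLI factors of the Hedgehog pathway, and CAAGGTCA, bound by the adrenal nuclear receptor NR5A1, on both strands of the 300-base RefSeq windows. The GLI letters were in 0 of the 65 windows of the 39 guidance genes that matched the table, and in 0.199% of all 35116 windows. At so low a share, finding none in these windows does not set the guidance genes apart. The NR5A1 letters were in 1 window, of SEMA4G, and in 1.14% of all. For comparison, PTCH1, a known GLI target, held the GLI letters 164 bases before a start. The windows of PTCH1 at chr9:95509420-95509448 (minus strand) and SEMA4G at chr10:100972284-100972311 (plus strand), chosen after the values were seen, are printed with the motif in capitals, as its reverse complement.
PTCH1: gttgcctaccTGGGTGGTCtctctacttt
SEMA4G: aagagggtcaTGACCTTGggtttcgggt
A match describes letters in a window and not a bound site. The RefSeq table had no entry for SEMA6A, SEMA6B, UNC5B, NRP1, NTN1, NTN3, SEMA3A and UNC5D. The called genes SEMA6A, SEMA6B and UNC5B were thus not searched.

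Both SEMA6A and SEMA6B, transmembrane semaphorins whose known receptors are class A plexins, rose. SEMA6A had 891, 995 and 1000 counts in the H295R-labelled libraries and 1582, 1580 and 1570 in those labelled H295R-PM-Ptc+. Its level was 39.0 ± 1.59 against 64.4 ± 3.06 CPM, with a log2 fold change of 0.72 (SE 0.0744, edgeR adjusted p = 0.00122). Both groups were tight, and the fold change stayed between 0.68 and 0.75 when any 1 library was left out. SEMA6A lies at chr5:116443616-116574934 on the minus strand, where 12 of the 20 neighbors were higher (median 0.03).

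SEMA6B had 525, 317 and 426 counts against 1058, 821 and 861. In CPM these were 22.0, 12.5 and 17.2 against 41.4, 33 and 37.2. Replicate 1 was the highest and replicate 2 the lowest in both groups, and the groups did not overlap. The log2 fold change was 1.11 (SE 0.181, 2.16-fold, edgeR adjusted p = 0.0119). The adjusted p was 0.0643 without H295R replicate 3 and 0.0518 without H295R-PM-Ptc+ replicate 3. SEMA6B lies at chr19:4542593-4559808 on the minus strand, where 13 of the 20 neighbors were higher (median 0.05). The other class 6 members were not called: SEMA6D was at 37.0 ± 6.12 and 41.0 ± 4.68 CPM, and SEMA6C at 12.3 ± 5.35 and 10.4 ± 0.984, its first replicate labelled H295R standing at 18.4. Summed, the class went from 105.5 ± 4.18 to 153.1 ± 4.26 CPM.

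PLXNB3, a plexin known to bind SEMA5A, had 77, 81 and 79 counts in the H295R-labelled libraries and 166, 146 and 124 in the others. The level was 3.20 ± 0.0178 against 5.91 ± 0.570 CPM. The 3 libraries labelled H295R were nearly equal and lay below all those labelled H295R-PM-Ptc+. The log2 fold change was 0.88 (SE 0.135, edgeR adjusted p = 0.00898, and 0.0544 without H295R replicate 3). It lies at chrX:153764196-153779346 on the plus strand and shares 412 exon bases with SRPK3 on the same strand, which held 1 and 3 summed counts. Of its 20 neighbors 15 were higher, with a median log2 fold change of 0.07.

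**Figure D3:**
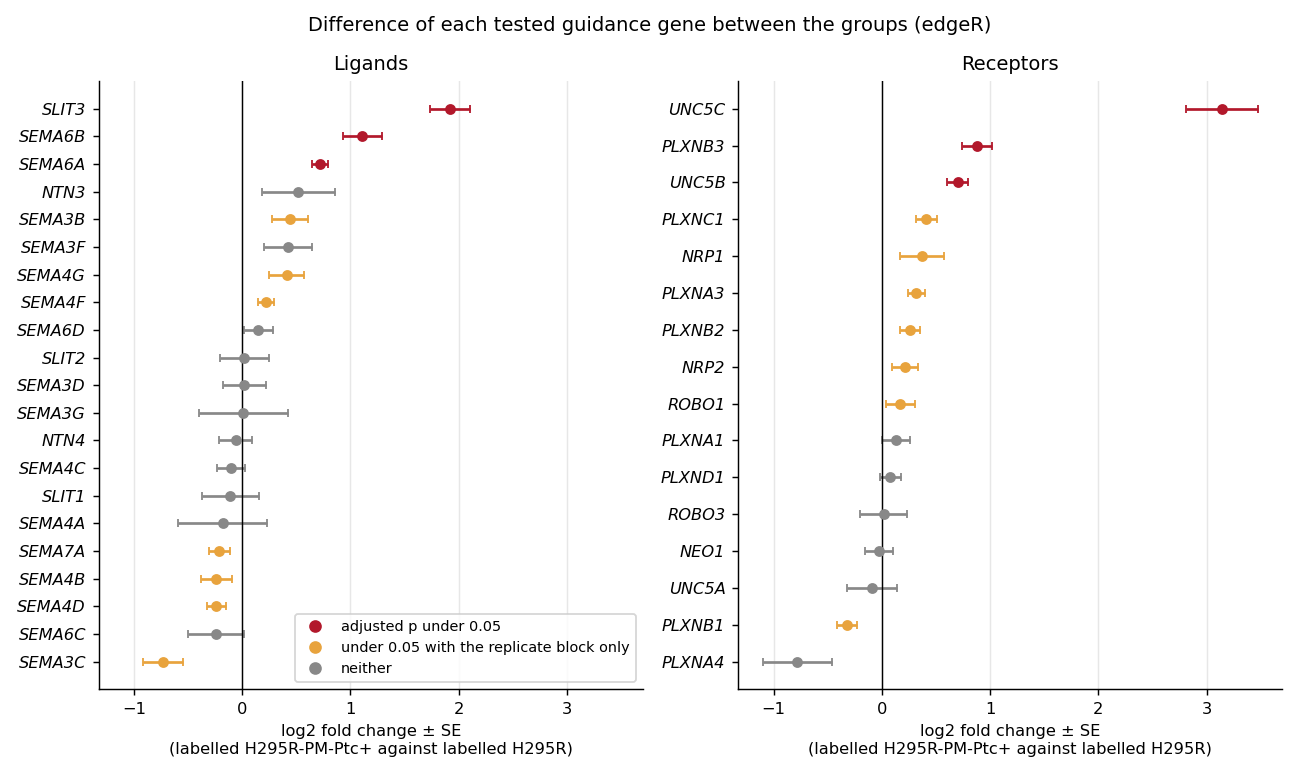
log2 fold change ± SE (edgeR, SE calculated back from the F statistic) of the 21 tested ligands and 16 tested receptors, labelled H295R-PM-Ptc+ against labelled H295R. The 6 genes with an adjusted p under 0.05 all lie right of 0, from UNC5C at 3.14 to UNC5B at 0.70, and the lowest values are PLXNA4 at -0.78 and SEMA3C at -0.73.

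Same-numbered libraries deviated together, most clearly those of replicate 1. Entering the replicate number as a block raised the guidance genes called from 6 to 20, of which 15 were higher and 5 lower. That was 54.1% of the 37, where the block called 22.5% of all tested genes (12.1% higher and 10.4% lower). The 6 genes above were among the 20, with block adjusted p-values from 8.04e-08 (SEMA6B) to 1.63e-04 (PLXNB3) in edgeR. The 14 further genes had differences from -0.73 to 0.44 on the log2 scale, and each had the same sign in all 3 pairs. Without a test, the CPM of the groups did not overlap in 16 of the 37 genes (43.2%, beside 23.5% of all tested genes), 13 of them higher (12.4% of all) and 3 lower (11.2% of all).

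**Figure D4:**
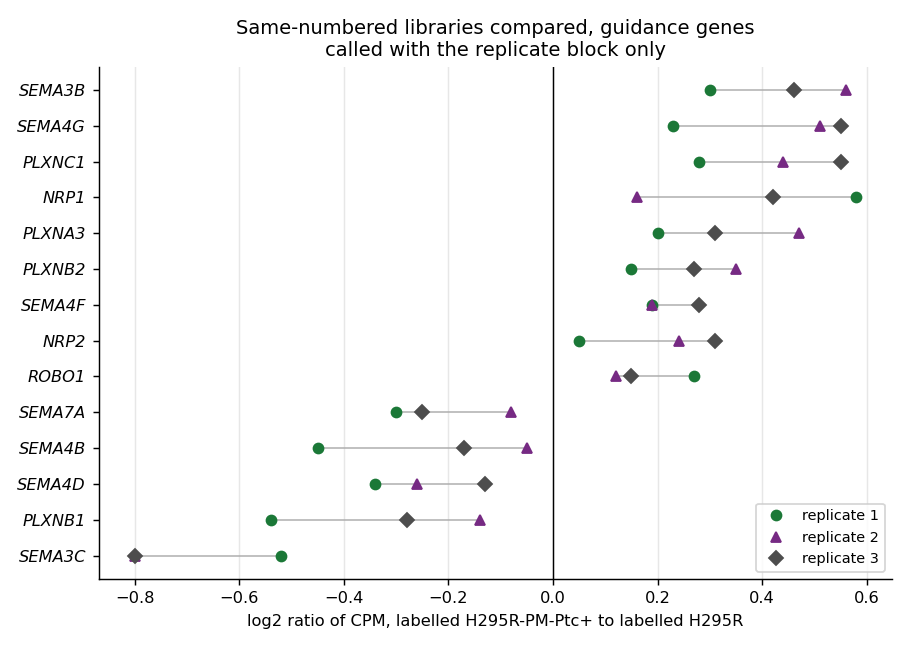
log2 ratio of CPM between same-numbered libraries, labelled H295R-PM-Ptc+ to labelled H295R, for the 14 guidance genes called only with the replicate block. Each gene has 1 symbol per replicate number; the 9 genes at the top lie right of 0 in all 3 pairs and the 5 at the bottom (SEMA7A, SEMA4B, SEMA4D, PLXNB1 and SEMA3C) left of 0.

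Among the ligands of this set, SEMA3C, a secreted semaphorin that guides neural crest and endothelial cells, was lower. It had 67, 93 and 99 counts in the H295R-labelled libraries and 50, 52 and 53 in the others, a log2 fold change of -0.73 (SE 0.182, edgeR adjusted p = 0.0677, and 0.00425 with the block). SEMA3C was the lower gene called by DESeq2 (adjusted p = 0.0468), and edgeR called it without a count filter (adjusted p = 0.0248). The groups did not overlap. SEMA3B, a class 3 semaphorin studied as a tumor suppressor, was higher at 3.56, 2.95 and 2.63 CPM against 4.38, 4.34 and 3.63 (log2 fold change 0.44, block adjusted p = 0.0389 in edgeR). The class 3 sum was 12.1 ± 0.665 and 12.3 ± 0.762 CPM, with these members on opposite sides of 0.

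The class 4 semaphorins, transmembrane ligands of plexins B and D, were also split. SEMA4G was at 18.0, 12.5 and 12.1 CPM against 21.1, 17.9 and 17.7, a log2 fold change of 0.41 (block adjusted p = 0.00151 in edgeR), and the groups overlapped while each pair was higher. Without H295R replicate 1 it was 0.62. Its exons overlap MRPL43 on the other strand, which held 3358 and 3151 summed counts. SEMA4F was higher at 24.2 ± 0.878 against 28.2 ± 0.893 CPM (block adjusted p = 0.0201 in edgeR). SEMA4B, the highest ligand, was lower with the block: it had 134.0, 87.9 and 100.8 CPM against 97.9, 85.1 and 89.8, a log2 fold change of -0.24 (edgeR adjusted p = 0.446, and 0.0159 with the block). Its libraries overlapped, and replicate 1 labelled H295R stood highest, without which the log2 fold change was -0.05. SEMA4D, the ligand of PLXNB1, was at 43.2, 47.3 and 44.9 CPM against 34.2, 39.5 and 41.2, a log2 fold change of -0.24 (block adjusted p = 0.00738 in edgeR), with no overlap. SEMA7A, which binds PLXNC1 and integrins, was at 39.3, 36.6 and 44.4 CPM against 31.8, 34.8 and 37.5, with overlap (log2 fold change -0.21, block adjusted p = 0.0219 in edgeR).

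Of the 8 tested plexins, 1 was called without the block (PLXNB3), and with the block 4 were higher and 1 was lower, beside 3.73% of all tested genes called without and 22.5% with it. PLXNC1, the SEMA7A receptor, had 2063, 1891 and 1677 counts against 2674, 2504 and 2294, or 86.3, 74.4 and 67.8 CPM against 104.6, 100.7 and 99.1, without overlap. The log2 fold change was 0.41 (SE 0.0957, edgeR adjusted p = 0.0516, and 3.67e-05 with the block), and it was called by DESeq2 (adjusted p = 0.0109) and limma-voom (adjusted p = 0.0480). PLXNC1 shares exon bases with CEP83 on the other strand, which held 1569 and 1632 summed counts. PLXNA3, a class 3 semaphorin receptor, was at 70.7, 59.3 and 64.0 CPM against 81.3, 82.2 and 79.1, also without overlap (log2 fold change 0.32, edgeR adjusted p = 0.0709, and 4.76e-04 with the block). DESeq2 called PLXNA3 as well (adjusted p = 0.0389).

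PLXNB2, which with PLXNB1 receives class 4 semaphorins, was at 86.7, 77.4 and 91.3 CPM against 96.2, 98.6 and 110.2 (log2 fold change 0.26, edgeR adjusted p = 0.180, and 0.00142 with the block), without overlap. Of its 20 neighbors 16 were also higher, with a median of 0.10. PLXNB1 went the other way, at 33.1, 31.5 and 31.3 CPM against 22.8, 28.5 and 25.7, a log2 fold change of -0.32 (SE 0.0943, edgeR adjusted p = 0.113, and 0.00498 with the block). PLXNA1, at 114.8 ± 14.0 and 125.7 ± 19.2 CPM, and PLXND1, the receptor of SEMA3E, at 52.3 ± 5.48 and 55.5 ± 4.71, were not called in either fit, and PLXNA4 was at 1.01 ± 0.295 and 0.589 ± 0.152 (log2 fold change -0.78, SE 0.318, edgeR adjusted p = 0.250).

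Both neuropilins and ROBO1 were higher within pairs, although their groups overlapped. NRP2 was at 131.5, 146.2 and 151.7 CPM in the H295R-labelled libraries and 136.3, 173.2 and 187.6 in the others, a log2 fold change of 0.21 (edgeR adjusted p = 0.425, and 0.00875 with the block). Of the 20 tested genes nearest to NRP2, 18 were lower, with a median log2 fold change of -0.33. NRP1, the co-receptor for SEMA3A and VEGF, was at 5.32, 8.50 and 8.50 CPM against 7.94, 9.53 and 11.4 (log2 fold change 0.37, edgeR adjusted p = 0.407, and 0.0187 with the block). ROBO1 was at 129.5, 175.2 and 176.1 CPM against 155.9, 190.9 and 195.9 (log2 fold change 0.17, edgeR adjusted p = 0.579, and 0.00851 with the block). In all 3 genes replicate 1 was the lowest library of its group. With 1 library left out, the log2 fold change ran from 0.04 (without H295R replicate 1) to 0.26 (without H295R-PM-Ptc+ replicate 1) for ROBO1, and from 0.17 to 0.48 without the same libraries for NRP1. For NRP2 it ran from 0.10 (without H295R-PM-Ptc+ replicate 3) to 0.33 (without H295R-PM-Ptc+ replicate 1). NEO1 was at 114.3, 146.9 and 158.3 CPM against 120.5, 146.9 and 144.8, overlapping ranges with replicate 1 again lowest (log2 fold change -0.03, SE 0.129), and ROBO3 at 3.16 ± 0.926 and 3.19 ± 0.300.

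Known ligand and receptor partners can be read side by side on the scale of CPM per kb. SEMA6A (3.56 to 5.88) and SEMA6B (3.90 to 8.43) are best known as ligands of PLXNA2, which had at most 2 counts in any library, and PLXNA4, which was at 0.0616 and 0.0360. The other class A plexins had much more RNA, with PLXNA1 at 10.5 and 11.5 and PLXNA3 at 8.54 and 10.7. SLIT3 (0.0969 to 0.366) remained far below SLIT2 (3.78 and 3.84), while their receptor ROBO1 was at 14.7 and 16.6. The netrin receptors UNC5B (7.22 to 11.7) and NEO1 (17.2 and 16.9) stood well above the netrins NTN4 (1.47 and 1.4), NTN3 (0.157 and 0.226) and NTN1 (0.0362 and 0.0166). For SEMA4D (3.19 and 2.70) and its receptor PLXNB1 (3.28 and 2.64), both were lower with the block, while for SEMA7A (9.31 and 8.05) and PLXNC1 (7.71 and 10.3) the ligand was lower and the receptor higher. PLXNB3 (0.457 to 0.843) rose where its ligand SEMA5A had at most 3 counts in a library. RNA in whole cultures does not tell fewer cells expressing a gene from less RNA in each cell.

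The wider guidance machinery was followed with 97 further genes in 3 lists, of which 80 were tested and 7 were called (8.75%, beside 3.73% of all tested genes), 5 higher and 2 lower. These lists too were chosen with earlier results of these data known, so the shares are descriptive. With the replicate block 31 of the 80 were called, 23 higher and 8 lower, where the block called 22.5% of all tested genes (12.1% higher and 10.4% lower). When a single library was left out the count of 7 became 10 (H295R replicate 1), 5 (H295R-PM-Ptc+ replicate 1), 2 (replicate 2 of either group), 3 (H295R replicate 3) or 4 (H295R-PM-Ptc+ replicate 3). The share of all tested genes called moved as well in these fits, to 4.75%, 2.53%, 1.63% and 1.45%, 1.28% and 1.5%. Among ephrins and Eph receptors, which signal by cell contact, 2 of 16 tested rose and 1 fell, and 3 were higher and 2 lower with the block. The receptor EPHA2 was at 0.230 ± 0.117 against 1.08 ± 0.190 CPM (log2 fold change 2.20, SE 0.358, edgeR adjusted p = 0.0119) and EPHA10 at 2.20 ± 0.161 against 4.00 ± 0.305 (0.86, SE 0.150, edgeR adjusted p = 0.0171). With 4, 4 and 9 counts in the H295R-labelled libraries, EPHA2 passed the count filter only through the other group, and its test depends on that. EPHB3 was at 4.61 ± 0.367 against 2.48 ± 0.621 CPM (-0.90, SE 0.190, edgeR adjusted p = 0.0378). The EPHA2 call was lost without H295R replicate 2 or either of the H295R-PM-Ptc+ replicates 2 and 3, the EPHB3 call without H295R replicate 2 or 3 or H295R-PM-Ptc+ replicate 1 or 2, and the EPHA10 call without any library other than H295R replicate 1.

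Among other guidance ligands and co-receptors, 3 of 19 tested were called, all higher and all adhesion molecules of the cell surface, beside 3.73% of all tested genes. With the block 8 were higher and 2 lower, beside 22.5%. CHL1, an L1-family molecule that acts as a co-receptor for class 3 semaphorins, was at 104.2 ± 6.35 against 209.6 ± 8.84 CPM (log2 fold change 1.01, SE 0.0787, edgeR adjusted p = 3.93e-04). NFASC, another L1-family molecule, was at 18.4 ± 2.64 against 49.7 ± 9.56 CPM (1.43, SE 0.154, edgeR adjusted p = 0.00147). FLRT2, a ligand of UNC5 receptors, was at 60.6 ± 2.34 against 77.5 ± 3.75 CPM (0.35, SE 0.0737, edgeR adjusted p = 0.0356), a call that was lost without replicate 2 or 3 of either group. Among intracellular effectors of guidance receptors 1 of 45 tested was called without the block, where 3.73% of all tested genes were, and 12 were higher and 4 lower with it, where 22.5% were. The 1 gene was FYN, a Src-family kinase, lower at 26.5 ± 1.18 against 18.7 ± 1.45 CPM (-0.50, SE 0.0892, edgeR adjusted p = 0.0189), a call that was lost without replicate 2 of either group or H295R replicate 3.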

How the data were processed

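Stranded, paired-end RNA-seq libraries, 6 in all, were made from H295R-derived cells. Reads were mapped by the authors to hg38 with STAR 2.4.0a. Fragments per gene were counted with featureCounts (Subread 1.5.0-p3 per the submitters' processing notes), and the authors deposited raw gene counts without normalization. The study's methods and the labels name different stranded kits, and strand assignment was not tested. Groups and replicate numbers were taken from the labels. The members and lists were chosen with earlier results of these data known. Counts were scaled by TMM, filtered with filterByExpr and tested with edgeR 4.0.16 under R 4.3.3 (glmQLFit and glmQLFTest, group as the only term, adjusted over all tested genes). The tests were tried on simulated counts. CPM use TMM-scaled totals and are given as mean ± SD of 3 libraries. Deviations of same-numbered libraries from the means of their groups had correlations of 0.497, 0.307 and 0.228 over genes, against -0.352 to 0.150 for other pairs. Deviations cancel out within a group, so part of this contrast is built in. Replicate 1 stood out most, while replicates 2 and 3 crossed between the groups gave 0.150 and 0.109. The block was left out of the main model because the study states none. Alternatives were DESeq2 1.42.0, limma-voom (limma 3.58.1), RLE size factors, other count filters, the replicate block and leaving out each library. The genes with library values are those called by edgeR, up to 10 called with the block only, and the 3 highest ligands and receptors; from the related lists only called genes are named. Neighborhoods are the 10 tested genes on each side. Promoters came from RefSeq (GRCh38.p14). Python 3.11.15, pandas 2.3.3 and, for the plots, matplotlib 3.10.9 were used.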

Additional observations from a re-analysis of the deposited data

How the results depend on the processing

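Of the 6 guidance genes called, DESeq2, limma-voom, RLE size factors, no filter and the replicate block kept each, while a minimum of 10 counts in every library left 5 because UNC5C was not tested. The count was 20 with the replicate block, which lost no call and called 22.5% of all tested genes. It was from 4 to 10 when each library was left out, the 10 arising without H295R replicate 1. These leave-out fits called 1.28% to 4.75% of all tested genes. The related genes called numbered 31 of 80 with the block, beside the same 22.5%. Without a filter they were 13 of 96, where 3.59% of all genes were called. With a library left out they were 2 to 10 of 82 to 84, where 1.28% to 4.75% were. The median of the guidance genes was 0.17 on the log2 scale without a filter, over all 47, and 0.06 to 0.21 with a library left out. Genes near 0 changed sign when single libraries were left out, each uncalled: SEMA6C from -0.46 to 0.16, SEMA4A from -0.47 to 0.10, SEMA4C from -0.21 to 0.06, SEMA3G from -0.25 to 0.58, SLIT2 from -0.21 to 0.19, SEMA3D from -0.16 to 0.19 (-0.01 with limma-voom), UNC5A from -0.17 to 0.002, ROBO3 from -0.18 to 0.25, SLIT1 from -0.35 to 0.03 and NEO1 from -0.15 to 0.06. The cause was not tested. Depth limits the genes with few counts, UNC5C among them, and 10 guidance genes could not be tested.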

Other observations

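Replicate 1 was the highest or the lowest library of both groups in many genes of the whole table, the guidance genes included. Of the 37 tested guidance genes, it was the highest library of both groups in 12 (32.4%, beside 27.1% of all tested genes) and the lowest of both in 14 (37.8%, beside 26.4%). SLIT2 was lower in replicate 1 than in the mean of the other libraries of its group, by a log2 difference of -0.82 in the H295R-labelled group and -0.59 in the other. For NRP1 the differences were -0.68 and -0.40. SEMA6C and SEMA6B ran the other way, at 0.99 and 0.20 for SEMA6C and 0.56 and 0.24 for SEMA6B.

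The median log2 ratio over the 37 guidance genes was 0.15, 0.16 and 0.16 in the pairs of replicates 1, 2 and 3, beside medians of 0.005, 0.002 and -0.002 over all tested genes.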
